A study of Mus musculus with 108 samples.

Results

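The subcortical maternal complex is a protein assembly of the egg and early embryo, and its 7 genes measured here were Nlrp5, Ooep, Tle6, Khdc3, Padi6, Nlrp2 and Zbed3. They were found by matching the mouse gene identifiers of the count files to these symbols, 1 identifier for each, among 55573 gene rows. All 7 passed the filter on low counts in each fit. RNA had been sequenced from single mouse oocytes of control females and of females labelled as an Exosc10 oocyte-specific knockout (cKO). EXOSC10 is a 3′ to 5′ exoribonuclease that works with the RNA exosome in the nucleus. The oocytes were at the germinal vesicle stage (GV, before meiosis resumes), at GV+3hr (after 3 hours of culture) or at metaphase II (MII, the ovulated egg). Strain, age, hormone treatment, the alleles of either genotype and the promoter behind the knockout were not given in the sources used here, so the controls could not be described further. The GV oocytes and the 3-hour oocytes had been held outside the body in M2 medium, whereas MII eggs had been taken out of oviducts.

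Proteins of the complex gather beneath the plasma membrane of the growing oocyte and are inherited by the embryo, and mouse embryos that lack the core members from the mother arrest during cleavage. NLRP5 (also called MATER), OOEP (FLOPED) and TLE6 form the core, and KHDC3 (FILIA) binds to it. PADI6 belongs to the peptidylarginine deiminase family and is needed for the cytoplasmic lattices, the fibrous stores of protein in the oocyte. NLRP2 is a relative of NLRP5, and ZBED3 is a zinc finger protein of the complex. Their genes are transcribed during oocyte growth. A full-grown oocyte transcribes little, and during meiotic maturation its stored transcripts are translated, deadenylated, polyadenylated or degraded.

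Counts came from 86 oocytes of 23 females. Of these, 64 oocytes of 16 females had polyA libraries, in which RNA is captured by its poly(A) tail on oligo(dT) beads. The other 22 oocytes, of 7 females, had RiboMinus libraries, which are primed by random hexamers and do not select for a tail. The polyA groups held 7 control and 15 cKO oocytes at GV (2 and 2 females), 8 and 11 at GV+3hr (3 and 3) and 8 and 15 at MII (3 and 3). The RiboMinus groups held 8 control and 7 cKO oocytes at GV (2 and 2 females), and 3 and 4 at MII, from 1 control female and 2 cKO females. Total gene counts ran from 4638718 to 8735914 in the polyA libraries and from 12319658 to 62675760 in the RiboMinus libraries, where the highest total was 1 MII cKO oocyte of female V1166. Exosc10 was at 43.0 to 55.6 CPM (counts relative to library size, scaled by TMM factors) in polyA GV controls and at 0 to 3.26 CPM in polyA GV cKO oocytes, and it was lower in the cKO in all 5 comparisons of genotype (log2 fold change from -7.49 to -5.34). All 9 oocyte marker genes were detected in every group, with summed levels of 15105 to 29518 CPM in polyA oocytes, whereas the 11 markers of granulosa and cumulus cells summed to 20.96 to 139 CPM, with 8 to 10 of them detected in a group. In RiboMinus oocytes these sums were 6949 to 13416 CPM and 20.1 to 80.6 CPM. The files held 0 rows for the spike-in RNA that the labels mention, so every difference below is relative to the other RNAs of the same library.

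The 7 genes lie on 5 chromosomes (mm10/GRCm38, GENCODE M21 annotation). Nlrp5 (ENSMUSG00000015721) is at chr7:23385889-23441922 on the plus strand with 16 exon blocks, and Nlrp2 (ENSMUSG00000035177) is at chr7:5298547-5351035 on the minus strand with 13. Ooep (ENSMUSG00000032346) is at chr9:78376109-78378725 on the minus strand with 3 exon blocks, and Khdc3 (ENSMUSG00000092622) is at chr9:73101836-73104438 on the plus strand with 4. Tle6 (ENSMUSG00000034758) is at chr10:81590904-81601073 on the minus strand with 15 exon blocks. Padi6 (ENSMUSG00000040935) is at chr4:140727355-140742643 on the minus strand with 18, and Zbed3 (ENSMUSG00000041995) is at chr13:95323612-95337841 on the plus strand with 4. Khdc3 shares 790 of its 2050 exonic bases (38.5%) with Gm20509, a gene annotated on the same strand, so reads there could be split or left uncounted and its level is uncertain. Nlrp2 shares 105 exonic bases (2.99%) with the pseudogene Gm18757 on the opposite strand. The introns of Zbed3 hold the small nucleolar RNA genes Snora47 and Gm22661, which share 0 exonic bases with it.

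Oocyte genes are often driven by FIGLA, a basic helix-loop-helix factor that binds the E-box letters CANNTG, so the promoters of the 7 genes in RefSeq (GRCm38.p6, 250 bases before to 50 after each start) were read for these letters. CANNTG reads the same on both strands, and 23756 of 32851 promoters (72.3%) hold it. In Khdc3, Ooep and Padi6 an E-box began at the same distance, position -78 from the start, which holds for 159 of the 32851 promoters (0.484%). The position was noticed in these sequences and not chosen beforehand. The 30 bases around it, from -90 to -61, are shown 5′ to 3′ on the strand of each gene, with the E-box in capitals.
Khdc3, chr9:73102308-73102337, plus strand: tctcccccacccCAGGTGcagccagtgagg
Ooep, chr9:78378649-78378678, minus strand: acccagcctaccCACTTGcgcggtgcgcgc
Padi6, chr4:140742704-140742733, minus strand: ctcctccaggctCACCTGtgaacccttaac
The Ooep letters lie inside an Ooep exon of the GENCODE annotation, whose start is further upstream than that of RefSeq. The GENCODE start of Khdc3, at 73101836, is also further upstream, so its letters lie inside the gene there, though in no exon. For both genes position -78 holds for the RefSeq start only. The 7 genes have 11 promoters in the table, of which 10 hold CANNTG and 3 hold it at -78. The promoters of Tle6 (3 and 4 matches), of Nlrp5 (2 and 2) and of Zbed3 (3, 1 and 1) hold it elsewhere. Khdc3 holds 5 matches and Padi6 holds 2, so both also have CANNTG at other positions than -78, while Ooep holds 1. The Nlrp2 promoter held 0 matches. TAATTG, a letter string bound by NOBOX, was searched on both strands and was found in Ooep (at -195) and Padi6 (at +9), against 8.0% of all promoters. These matches describe letters only. Binding was not measured, and a link between the letters and the change from GV to MII was not tested.

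In polyA GV control oocytes the transcripts were among the most abundant of the oocyte. Per kilobase of exon, the median oocyte had 1617 CPM of Padi6, 1555 of Zbed3, 1029 of Khdc3, 919 of Ooep, 711 of Tle6, 262 of Nlrp5 and 126 of Nlrp2. Padi6 ranked 9 and Nlrp2 325 among 14030 genes by mean level per kilobase. Padi6 and Zbed3 overlapped between oocytes, as did Khdc3, Ooep and Tle6 with their neighbours in this order, while Zbed3 stood apart from Khdc3, Tle6 from Nlrp5 and Nlrp5 from Nlrp2. Reads in the bases that Khdc3 shares with Gm20509 could be left uncounted. The place of Khdc3 is therefore uncertain, here and in the RiboMinus order. RiboMinus GV controls gave another order. Zbed3 came first at 4365 CPM per kilobase and ranked 2 among 13983 genes, and no oocyte of any other of the 7 genes reached its range. Ooep (302), Padi6 (290.2) and Tle6 (272) came next and overlapped in turn, below Zbed3, and Tle6 stood apart from Khdc3 (144). Khdc3, Nlrp5 and Nlrp2 likewise overlapped in turn, and Nlrp2 was again last at 84.7. Snora47, inside Zbed3, had a median of 5.56 CPM in these oocytes.

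**Figure D1:**
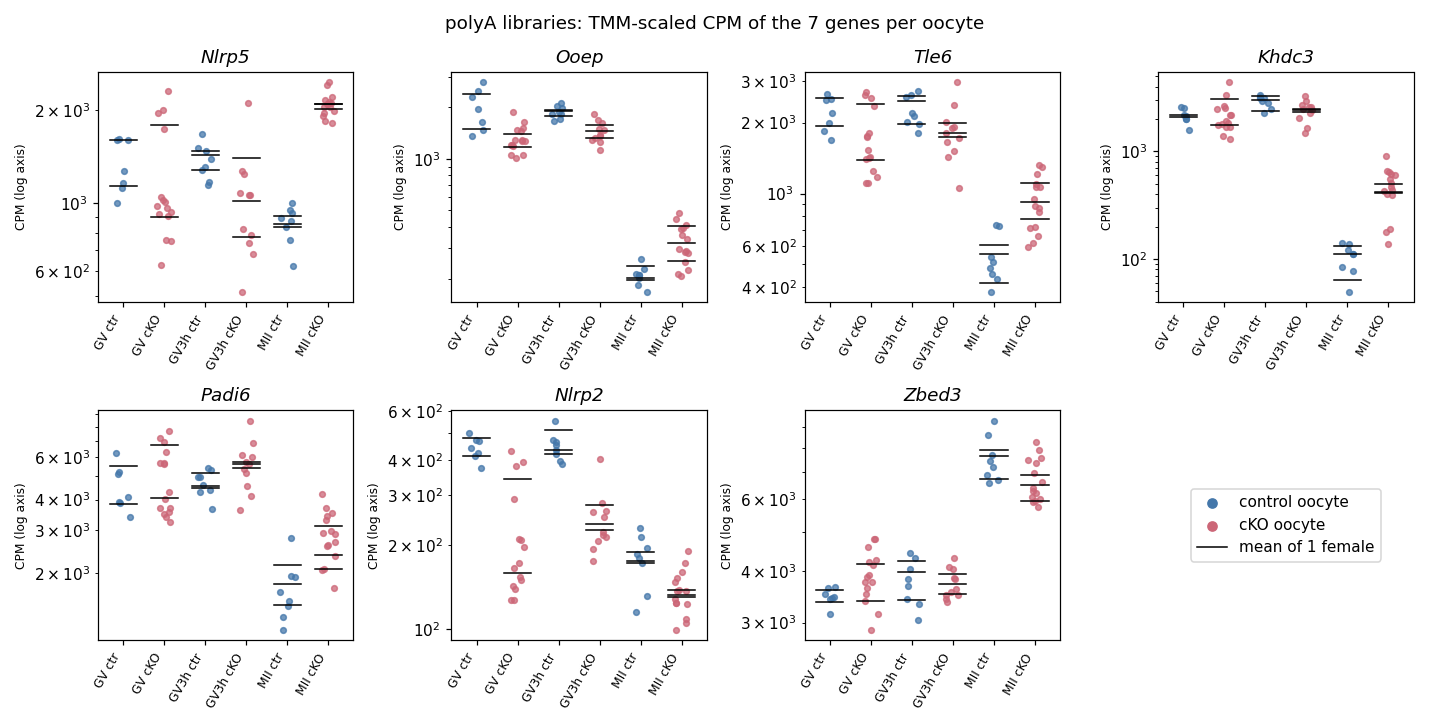
Level of each of the 7 genes in every polyA oocyte (points, CPM on a log axis) by stage and genotype, with the mean of each female as a black line. In controls Ooep falls from a median of 1964 CPM at GV to 211 at MII, and the MII cKO oocytes lie above the MII controls for Nlrp5.

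The change from GV to MII asks which stored transcripts remain captured by their tail in the egg. In polyA controls 6 of the 7 genes passed the test (edgeR's quasi-likelihood test on counts summed per female, Benjamini-Hochberg adjusted over all genes, called under 0.05), 5 lower and 1 higher, against 42.5% of the 19242 genes tested (16.8% higher and 25.7% lower). Values after ± are standard errors. The median log2 fold change of the 7 genes was -1.32, and that of all genes tested was -0.26. Khdc3, whose product is needed for genome stability in the early embryo, had 1593, 2109 and 2581 CPM as the lowest, median and highest GV control and 49.6, 111 and 142 CPM at MII. The stages did not overlap, and Khdc3 fell with a log2 fold change of -4.33 ± 0.27 and an edgeR adjusted p of 6e-09. Its overlapping neighbour Gm20509 fell alike (-4.36 ± 0.25). Ooep, a core member, had 1360.4, 1964 and 2799.6 CPM at GV and 168, 211 and 262 CPM at MII, again without overlap, and fell with a log2 fold change of -3.15 ± 0.20 (edgeR adjusted p 5.59e-09).

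Tle6, the core member of the Groucho family of corepressors, had 1685, 2196 and 2657 CPM in GV controls and 383, 497 and 734 CPM in MII controls. The ranges were separate, with a log2 fold change of -2.03 ± 0.23 (edgeR adjusted p 2.42e-06). Padi6 had 3391, 4094 and 6217 CPM at GV and 1162, 1594 and 2788 CPM at MII, and Nlrp2 had 376, 442 and 500.2 and 116, 183 and 230.1. In both genes every GV control lay above every MII control, and the log2 fold changes were -1.32 ± 0.22 and -1.27 ± 0.22 (edgeR adjusted p 0.000181 and 0.000184). Zbed3 went the other way. It had 3152, 3469 and 3669.6 CPM at GV and 6572, 7323 and 9323 CPM at MII, all MII oocytes were above all GV oocytes, and it rose by 1.14 ± 0.14 (edgeR adjusted p 5.63e-06). Nlrp5 had 999.9, 1268 and 1611 CPM at GV and 624.5, 882 and 1000.3 CPM at MII. The 2 ranges touched, and its log2 fold change of -0.60 ± 0.24 did not pass (edgeR adjusted p 0.0544). It passed without GV control female V889 (-0.80, edgeR adjusted p 0.0475) and with library totals in place of TMM scaling (-1.04, edgeR adjusted p 0.00264). Somatic markers summed to 41.3 to 75.6 CPM in GV controls and to 79.8 to 139 CPM in MII controls, without overlap. Of the 9 that were tested Cyp19a1, the aromatase gene, was called higher at MII (1.51 ± 0.33) and Inha, listed at 0 there, lower. Ptx3 was at 0 in GV controls, and Fshr, Foxl2 and Inha in MII controls. Their part in the change of the 7 genes was not tested.

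The same step in cKO oocytes is a separate comparison. All 7 genes passed the test there, 5 lower and 2 higher, against 44.7% of all genes (18.1% higher and 26.6% lower), with a median log2 fold change of -0.94 for the 7 and -0.33 for all genes. Khdc3 had 1295, 1928 and 4374 CPM in GV cKO oocytes and 138, 465 and 908 CPM in MII cKO oocytes, and Ooep had 1007, 1279.6 and 1868 and 208, 299.6 and 485. Neither gene overlapped between the stages, and both fell, with log2 fold changes of -2.36 ± 0.25 and -1.89 ± 0.19 (edgeR adjusted p 2.07e-06 and 1.08e-06). Zbed3 had 2878, 3864 and 4805 CPM at GV and 5732, 6383 and 8261 CPM at MII with no overlap, and rose by 0.83 ± 0.14 (edgeR adjusted p 0.00012), a call that was lost when library totals replaced TMM scaling (0.31, edgeR adjusted p 0.0514). The other 4 genes overlapped between the stages at the level of oocytes. Tle6 (-0.94 ± 0.22), Padi6 (-1.02 ± 0.22) and Nlrp2 (-0.79 ± 0.22) fell, with edgeR adjusted p of 0.00287, 0.00161 and 0.0074. Each of these 3 calls was lost without GV cKO female V857, where the log2 fold changes were -0.47, -0.58 and -0.14.

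Nlrp5 also passed in cKO oocytes, in the higher direction. It had 627, 977 and 2308 CPM in GV cKO and 1814, 2090.1 and 2455 CPM in MII cKO oocytes, and rose by 0.70 ± 0.25 (edgeR adjusted p 0.0301). Its call was lost without GV cKO female V888 (0.29), without MII cKO females V841 (0.71) or V897 (0.67), and with library totals (0.19). The females of a GV group stood apart from each other in several members, in both genotypes. The 5 oocytes of V857 averaged 1779.6 CPM of Nlrp5, 2405 of Tle6 and 342 of Nlrp2. The 10 oocytes of V888 averaged 899, 1391 and 158. Ooep differed the other way, with 1181 CPM in V857 and 1391 in V888. Padi6 was higher in V857 (6743 against 4067 CPM), as was Khdc3 (3073 against 1767), and Zbed3 was lower (3391 against 4178). The 2 GV control females were split likewise in 5 of the 7 genes, with 1599 CPM of Nlrp5, 2554 of Tle6, 480.0 of Nlrp2 and 1496 of Ooep in V856, against 1137, 1929, 414 and 2386 in V889, and with 5500.1 against 3823 CPM of Padi6. Khdc3 (2081 against 2185 CPM) and Zbed3 (3609 against 3373 CPM) differed the other way from the cKO pair. Somatic markers summed to 20.96 to 70.3 CPM in GV cKO and to 68.4 to 131 CPM in MII cKO oocytes, with Ptx3 at 0 in both. Of the 9 tested Cyp19a1 was called higher at MII (2.03 ± 0.34) and Amh, Inha and Inhba lower, and their part in these changes was not tested.

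The difference between the genotypes in this step was tested as an interaction. It passed for Ooep (1.27 ± 0.27, edgeR adjusted p 0.0266) and Khdc3 (1.97 ± 0.36, edgeR adjusted p 0.0126), against 1.94% of all genes (1.59% higher), so both fell less in cKO than in control oocytes. Nlrp5 (1.31 ± 0.35, edgeR adjusted p 0.0656) and Tle6 (1.09 ± 0.32, edgeR adjusted p 0.101) did not pass. The call on Ooep was lost without V857 (1.16), V889 (0.88), V842 (1.11), V853 (1.243) or V896 (1.20), and that on Khdc3 without V889 (1.93). With only the 4 groups of the comparison in the fit both were lost (1.25 and 1.97). Nlrp5, Tle6 and Nlrp2 passed without V857, at 1.88, 1.56 and 1.14.

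The 3 hours of culture changed none of the 7 genes in the test, in controls or in cKO oocytes, against 0% of all genes (edgeR). At an unadjusted p under 0.05 the count of the 7 was also 0 in both, as it was by DESeq2, while 425 and 373 of all genes had such a p. Khdc3 had the largest of these values in controls, with 2292, 3004 and 3324 CPM at GV+3hr and a log2 fold change of 0.42 ± 0.26, and its 2 ranges overlapped. In both genotypes the oocytes of all 7 genes overlapped between GV and GV+3hr.

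**Figure D2:**
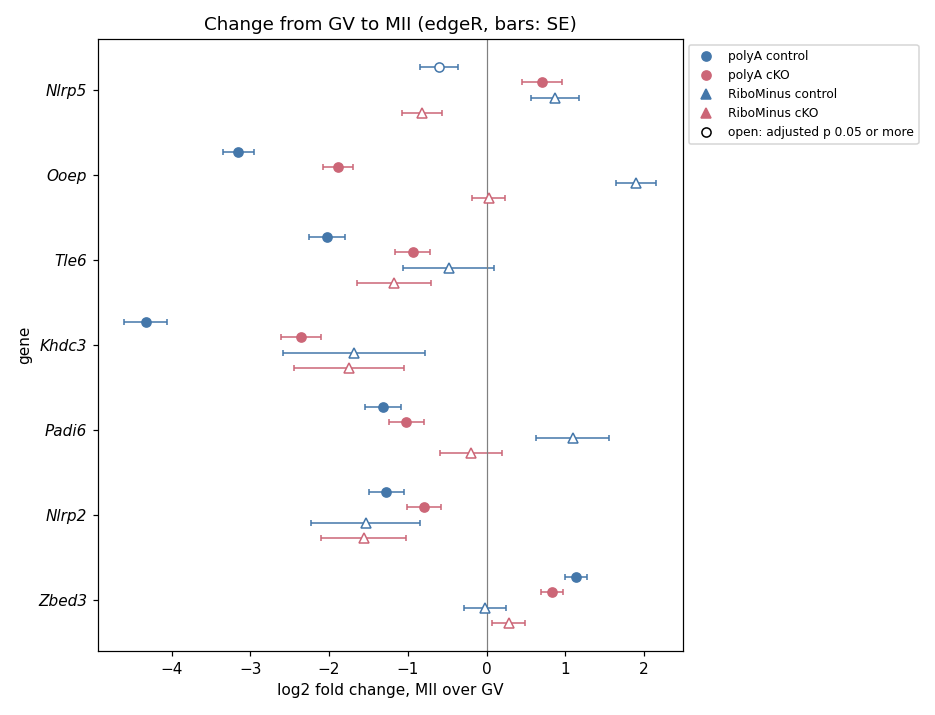
Log2 fold change from GV to MII of the 7 genes (rows) in polyA (circles) and RiboMinus libraries (triangles), controls in blue and cKO in red, with the standard error as bars and filled symbols for edgeR adjusted p under 0.05. Ooep sits at -3.15 in polyA controls and at 1.901 in RiboMinus controls.

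RiboMinus libraries asked the same of RNA with or without a tail, in other oocytes. None of the 7 genes passed from GV to MII in controls, against 0.00787% of all genes, or in cKO oocytes, against 2.32% (edgeR). At an unadjusted p under 0.05 there were 3 in controls and 4 in cKO oocytes, and DESeq2 called 1 and 1. Without the filter on low counts 4 and 4 were called, with each oocyte as a replicate 5 and 4, and in controls 6 with only the groups compared in the fit. The MII controls came from the single female V1145, whose spread was taken to be that of the other groups. Ooep had 477, 645 and 905 CPM in GV controls and 2679, 2456 and 2377 CPM in the 3 MII controls. Every MII control was above every GV control, opposite to the polyA libraries, with a log2 fold change of 1.901 ± 0.25 and an edgeR adjusted p of 0.0645. Padi6 and Nlrp5 were likewise higher in all 3 MII controls than in all GV controls. Padi6 had 662, 735 and 1102 CPM at GV and 1351, 1800.1 and 1756 at MII (1.09 ± 0.47, edgeR adjusted p 0.319). Nlrp5 had 413, 559.8 and 762 CPM and 955, 1023 and 1144 CPM (0.87 ± 0.30, edgeR adjusted p 0.233).

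Khdc3, Nlrp2 and Tle6 were lower in every MII control than in every GV control of the RiboMinus libraries. Khdc3 went from 222, 294 and 430.1 CPM to 96.6, 68.1 and 124 CPM (-1.68 ± 0.90, edgeR adjusted p 0.421). Nlrp2 went from 248, 297 and 315 CPM to 113, 65.4 and 122 CPM (-1.53 ± 0.69, edgeR adjusted p 0.342). These ranges were separate although the adjusted values did not pass. Tle6 had 728, 840.3 and 1036 CPM at GV and 542, 664 and 642 CPM at MII (-0.48 ± 0.58, edgeR adjusted p 0.717). Zbed3, which rose in polyA libraries, stayed among the highest genes here with 8182, 9739 and 12521 CPM at GV and 9807, 9882 and 9877 CPM at MII. Its ranges overlapped, with a log2 fold change of -0.02 ± 0.26. Somatic markers summed to 41.7 to 66.8 CPM in these GV controls and to 30.3 to 36.9 CPM in the MII controls, and their part was not tested.

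In RiboMinus cKO oocytes Khdc3 had 284, 400.5 and 639 CPM at GV and 20.0, 60.5, 198 and 231 CPM in the 4 MII eggs. The stages did not overlap, but its log2 fold change of -1.75 ± 0.70 did not pass (edgeR adjusted p 0.206). The oocytes overlapped for the other 6 genes, among them Nlrp5 (-0.82 ± 0.25), Tle6 (-1.18 ± 0.47) and Nlrp2 (-1.56 ± 0.54). Without V1167 the MII cKO group is V1166 alone, and these 4 genes had Nlrp5 at -1.19, Tle6 at -2.33, Khdc3 at -3.76 and Nlrp2 at -2.91.

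The difference in the maturation step between library types was tested across all 23 females. In controls 5 of the 7 genes passed, against 22.8% of all genes (10.9% higher and 11.9% lower in polyA). Nlrp5 (-1.30 ± 0.38), Ooep (-4.89 ± 0.32), Khdc3 (-2.49 ± 0.73) and Padi6 (-2.24 ± 0.48) had a lower log2 fold change in polyA than in RiboMinus libraries, and Zbed3 (1.32 ± 0.26) a higher one. The edgeR adjusted p was 0.0161, 2.41e-09, 0.0159, 0.00141 and 0.000553. Tle6 (-1.38 ± 0.53) and Nlrp2 (0.43 ± 0.59) did not pass. The value of Ooep was the farthest from 0 of the 7. The library types come from different females, and the RiboMinus MII controls are the single female V1145, so these differences in controls rest on that female. The call on Nlrp5 was lost without V856 (-1.08) or V1133 (-1.28), and that on Khdc3 without V1133 (-2.29).

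In cKO oocytes the difference between library types passed for 3 of the 7 genes, against 20.7% of all genes (11.6% higher and 9.17% lower). Ooep was again lower in polyA (-1.73 ± 0.29, edgeR adjusted p 0.00018), while Nlrp5 (1.71 ± 0.35, edgeR adjusted p 0.00123) and Zbed3 (0.73 ± 0.22, edgeR adjusted p 0.0221) were higher. With library totals Nlrp5 lost its call (0.97) and Ooep moved to -2.46. Tle6 (0.42 ± 0.48) and Nlrp2 (0.96 ± 0.52) did not pass. They were at 1.58 and 2.30 without V1167, which leaves V1166 alone in the RiboMinus MII cKO group. Zbed3 lost its call with library totals (0.02), with DESeq2 size factors (0.53), and without V857 (0.58), V897 (0.62), V1126 (0.59) or V1167 (0.62). Khdc3 (-0.42 ± 0.66) did not pass, and was at -1.23 with V1167 alone in that group (without V1166) and at 1.60 with V1166 alone (without V1167). Those 2 values have opposite signs, so no direction is given for it.

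**Figure D3:**
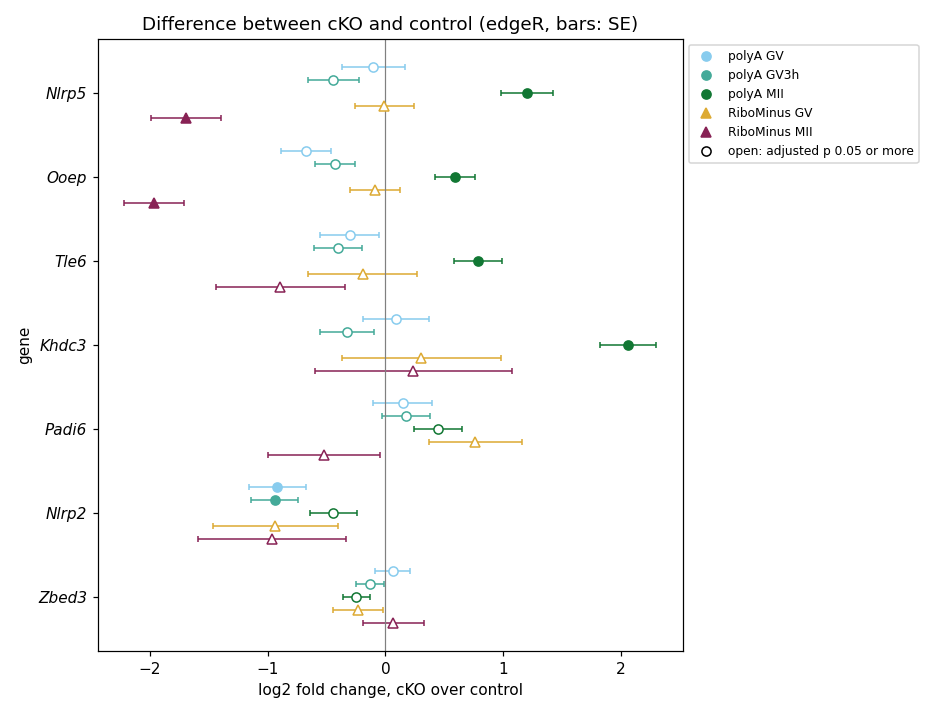
Log2 difference between cKO and control of the 7 genes (rows) at each stage of the polyA (circles) and RiboMinus libraries (triangles), with the standard error as bars and filled symbols for edgeR adjusted p under 0.05. At MII Nlrp5 sits at 1.20 in polyA and at -1.69 in RiboMinus libraries.

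The genotype comparisons asked whether loss of Exosc10 changed the transcripts at each stage. Before maturation, in polyA libraries, Nlrp2, which is also the least abundant member, was the one that passed. At polyA GV 1 of the 7 genes passed against 7.38% of all genes (3.91% lower), and at GV+3hr 1 against 25.2% (12.7% lower). The share of all genes at GV rests on few females, since the 1420 genes called became 675 without V857, 345 without V856 and 110 without V889. Nlrp2 had 376, 442 and 500.2 CPM in GV controls and 127, 172.3 and 430.2 CPM in GV cKO oocytes. The oocyte ranges overlapped, the female means did not, and it was lower in cKO by a log2 fold change of -0.92 ± 0.24 (edgeR adjusted p 0.0326). Female V857, with 211, 430.2, 396, 381 and 291 CPM in its 5 oocytes, lay nearer the controls than V888. The log2 difference was -1.58 without V857, and the call was lost without V888 (-0.47), V856 (-0.81) or V889 (-1.005), with library totals (-0.74), and with only the 2 groups in the fit (-0.94).

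At GV+3hr Nlrp2 had 388, 443 and 554 CPM in controls and 175, 222 and 405 CPM in cKO oocytes. The highest cKO oocyte, of V983, was the only one to reach the controls, the female means were separate, and the log2 difference was -0.94 ± 0.20 (edgeR adjusted p 0.00304). This call was kept without each of the 6 females. Ooep had 1360.4, 1964 and 2799.6 CPM in GV controls and 1007, 1279.6 and 1868 CPM in GV cKO oocytes, and its difference of -0.67 ± 0.21 did not pass (edgeR adjusted p 0.0621) but did without V856 (-0.97, edgeR adjusted p 0.0329). The other 5 genes overlapped between the genotypes, from -0.30 ± 0.25 for Tle6 to 0.15 ± 0.25 for Padi6 at GV. At GV+3hr Nlrp5 (-0.44 ± 0.22), Ooep (-0.43 ± 0.17), Tle6 (-0.40 ± 0.20) and Khdc3 (-0.32 ± 0.23) had values below 0 without passing, and Nlrp5 passed without V983 (-0.65, edgeR adjusted p 0.0473). Padi6 (0.18 ± 0.20, edgeR adjusted p 0.57) and Zbed3 (-0.13 ± 0.12, edgeR adjusted p 0.459) did not pass either. The cKO female means of Padi6 (5614, 5414 and 5703 CPM) all lay above the control means (4479.6, 5172 and 4553 CPM), while its oocytes overlapped. The cKO female means of Ooep all lay below the control means at both stages, again with overlapping oocytes. They were 1181 and 1391 against 1496 and 2386 CPM at GV, and 1331, 1569 and 1453 against 1779, 1905 and 1924 CPM at GV+3hr.

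In RiboMinus GV oocytes none of the 7 genes passed, against 0.0315% of all genes (edgeR), and the count at an unadjusted p under 0.05 and by DESeq2 was 0 too. Nlrp2 had 248, 297 and 315 CPM in controls and 96.9, 139 and 269.8 CPM in cKO oocytes, with a log2 difference of -0.93 ± 0.53 (edgeR adjusted p 0.454). All but 1 of its 7 cKO oocytes were below all controls. Padi6 was uneven among the cKO females, with 884 CPM on average in V1126 and 1698 CPM in V1131, against 662 to 1102 CPM in controls.

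In polyA libraries at MII, 4 of the 7 genes passed between the genotypes. The core and core-binding genes Nlrp5, Ooep, Tle6 and Khdc3 were higher in cKO eggs, against 18.9% of all genes called and 11.9% called higher. The median log2 difference was 0.59 for the 7 genes and 0.12 for all genes. The 9 oocyte marker genes, which are not part of the complex, had a median of 0.58, and 4 of them were called higher and none lower, the zona pellucida genes Zp2 (2.03 ± 0.18) and Zp3 (1.56 ± 0.25), the growth factor gene Bmp15 (0.67 ± 0.11) and the RNA-binding protein gene Dazl (0.74 ± 0.15). These 4 are named after their values were seen, and their calls were not run without each female. Nlrp5 had 624.5, 882 and 1000.3 CPM in MII controls and 1814, 2090.1 and 2455 CPM in MII cKO eggs. Every cKO egg was above every control, with a log2 difference of 1.20 ± 0.22 (edgeR adjusted p 0.00181). Khdc3 had 49.6, 111 and 142 CPM in controls and 138, 465 and 908 CPM in cKO eggs. A single pair of values overlapped at the edges, and its log2 difference was 2.06 ± 0.24 (edgeR adjusted p 5.54e-05), with Gm20509 at 2.08 ± 0.22. Both calls were kept without each of the 6 females.

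Ooep and Tle6 differed less. Ooep had 168, 211 and 262 CPM in MII controls and 208, 299.6 and 485 CPM in MII cKO eggs (0.59 ± 0.17, edgeR adjusted p 0.0256). Tle6 had 383, 497 and 734 CPM and 593, 887.5 and 1327 CPM (0.79 ± 0.20, edgeR adjusted p 0.0149). In both genes the oocytes overlapped and the female means did not. The call on Ooep was lost without V842 (0.44), V897 (0.58), V853 (0.57) or V896 (0.53), and that on Tle6 without V842 (0.66) or V896 (0.64). Padi6 (0.44 ± 0.20, edgeR adjusted p 0.14), Nlrp2 (-0.44 ± 0.20, edgeR adjusted p 0.131) and Zbed3 (-0.25 ± 0.12, edgeR adjusted p 0.158) did not pass. Among these Padi6 had 1162, 1594 and 2788 CPM in controls and 1732, 2895 and 4218 CPM in cKO eggs, with overlap. Somatic markers summed to 79.8 to 139 CPM in MII controls and to 68.4 to 131 CPM in MII cKO eggs, and Inhba, a granulosa gene, was called lower in cKO (-4.83). Of the 11 markers 8 were detected in controls, with Fshr, Foxl2 and Inha at 0, and 10 in cKO, with Ptx3 at 0. Their part in these results was not tested.

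**Figure D4:**
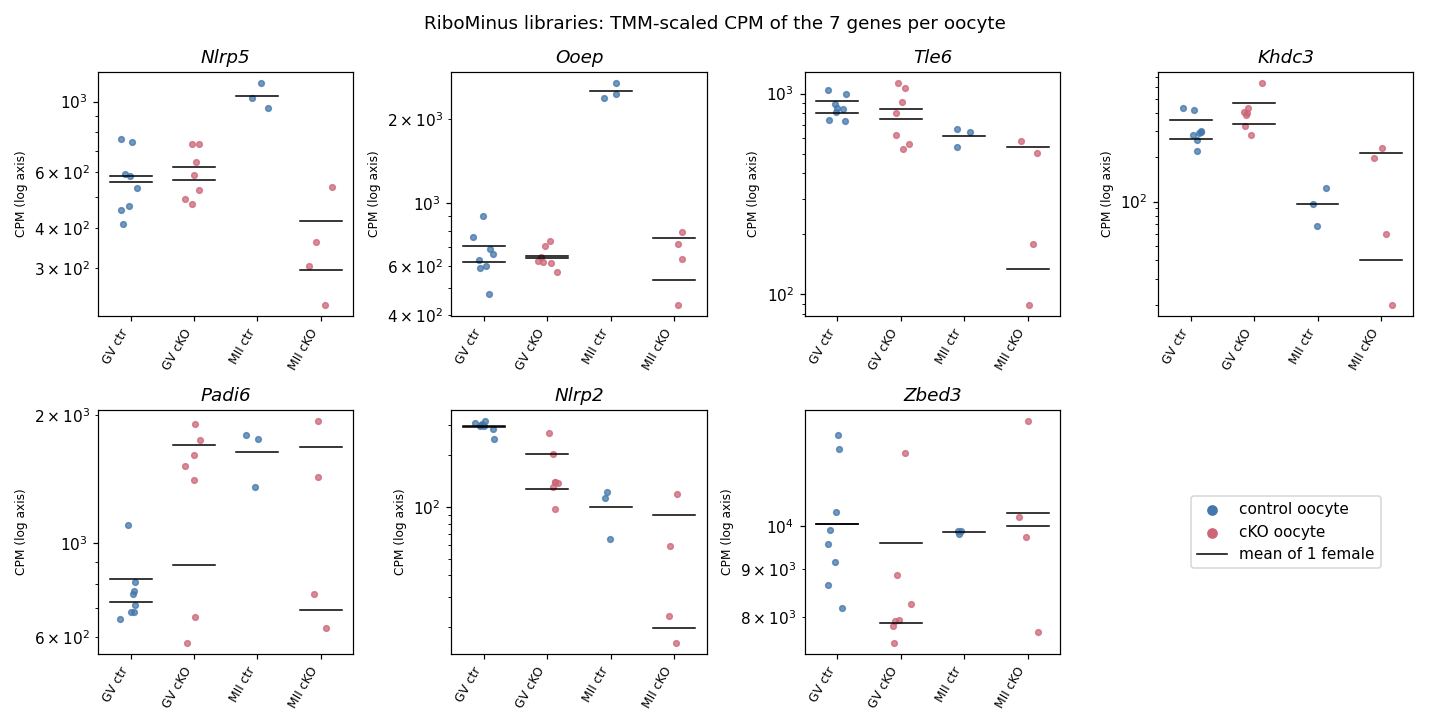
Level of each of the 7 genes in every RiboMinus oocyte (points, CPM on a log axis) by stage and genotype, with the mean of each female as a black line. The 3 MII controls, all of 1 female, lie at 2377 to 2679 CPM of Ooep and the 4 MII cKO eggs at 437 to 789 CPM.

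In RiboMinus eggs Nlrp5 and Ooep were lower, not higher, in cKO. At MII 2 of the 7 genes passed, both lower in cKO, against 7.3% of all genes called and 3.69% called lower. The median log2 difference was -0.89 for the 7 genes and 0.25 for all genes. The 9 oocyte markers had a median of 0.00, and none was called by edgeR, with 2 at an unadjusted p under 0.05. Ooep had 2679, 2456 and 2377 CPM in the 3 controls, 636 and 437 CPM in the 2 cKO eggs of V1166 and 718 and 789 CPM in those of V1167. All cKO eggs were below all controls, by a log2 difference of -1.97 ± 0.25 (edgeR adjusted p 0.013). Nlrp5 had 955, 1023 and 1144 CPM in controls, 229 and 362 CPM in V1166 and 304 and 537 CPM in V1167, again without overlap (-1.69 ± 0.30, edgeR adjusted p 0.0207). Both calls were kept without either cKO female, but with a single control female the effect of genotype and that of the female cannot be told apart. In the same libraries GV cKO oocytes had 569, 625.2 and 734 CPM of Ooep and overlapped with the MII cKO eggs (log2 fold change 0.02 ± 0.21).

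The 2 cKO females of the RiboMinus eggs stood apart in Tle6, Khdc3, Nlrp2 and Padi6, but not in Zbed3. Tle6 had 542, 664 and 642 CPM in controls, 179 and 89.0 CPM in V1166 and 504 and 582 CPM in V1167. Khdc3 had 96.6, 68.1 and 124 CPM in controls, against 20.0 and 60.5 CPM in V1166 and 198 and 231 CPM in V1167. Nlrp2 had 113, 65.4 and 122 CPM in controls, against 23.4 and 16.2 CPM in V1166 and 59.0 and 119.6 CPM in V1167. V1166 was below the controls in all 3 genes, while V1167 was above them in Khdc3 and overlapped with them in Tle6 and Nlrp2. Over both females the log2 differences were -0.89 ± 0.55 for Tle6, 0.24 ± 0.84 for Khdc3 and -0.96 ± 0.62 for Nlrp2, none of which passed (edgeR adjusted p 0.321, 0.885 and 0.344). Without V1167 the comparison is V1166 alone, with 62675760 counts in 1 egg and 20678209 in the other, against V1145 alone. The log2 differences of Tle6, Khdc3 and Nlrp2 were then -2.04, -1.78 and -2.31, with Khdc3 turned in sign. The spread in that fit came from the GV groups alone, so only these effect sizes are given. Padi6 split in the same way, with 759 and 629 CPM in V1166, 1429 and 1937 CPM in V1167 and 1351, 1800.1 and 1756 CPM in controls (-0.52 ± 0.47, edgeR adjusted p 0.477). Zbed3 overlapped between the genotypes, with 9807, 9882 and 9877 CPM in controls and 12962, 7695, 10243 and 9751 CPM in the cKO eggs (0.07 ± 0.26, edgeR adjusted p 0.898). Summed somatic markers were 30.3 to 36.9 CPM in MII controls and 20.1 to 42.0 CPM in MII cKO eggs, where Star (6.07) and Cyp11a1 (5.16) were called higher. Of the 11 markers 8 were detected in controls, with Foxl2, Amh and Ptx3 at 0, and 10 in cKO, with Ptx3 at 0. Their part in these results was not tested.

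The genotype difference at MII was then compared between the library types, a test chosen after the values above had been seen. It passed for Nlrp5 (2.86 ± 0.37, edgeR adjusted p 6.65e-05), Ooep (2.52 ± 0.31, edgeR adjusted p 4.44e-05) and Tle6 (1.64 ± 0.51, edgeR adjusted p 0.0463), against 9.43% of all genes called and 5.78% called higher. In these 3 genes cKO eggs were higher relative to controls in polyA than in RiboMinus libraries. Of the 9 oocyte markers, 3 were called higher (Zp2, Zp3 and Bmp15) and 2 lower (Gdf9 and Mos) in the same test, with a median of 0.78. Of 10 somatic markers tested, Cyp11a1 and Star were called lower, and the part of either list was not tested. The calls on Nlrp5 and Ooep were kept without each of the 8 females that could be left out. The RiboMinus MII controls are the single female V1145, who could not be left out, so the test rests on her. In those libraries the effect of genotype and that of the female cannot be told apart. The call on Tle6 was lost without V842 (1.53), V897 (1.59), V853 (1.69), V896 (1.49) or V1166 (1.004), with DESeq2 size factors (1.48) and with library totals (1.53), and its value was 2.79 without V1167. Without V1167, which leaves V1166 alone against V1145 in RiboMinus eggs, Khdc3 was at 3.81, Padi6 at 1.66 and Nlrp2 at 1.83. Within RiboMinus libraries the interaction of stage and genotype passed for 0 of the 7 genes, against 0% of all genes (edgeR). At an unadjusted p under 0.05 there were 2, and DESeq2 called 2, Nlrp5 (-1.64) and Ooep (-1.83).

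Partners of the complex were listed as well, 8 genes whose proteins bind it or are stored with the lattices. At polyA GV 2 of the 8 passed between the genotypes, both lower in cKO, against 7.38% of all genes (3.91% lower). They were Nlrp4f, an oocyte NLR gene (-0.55 ± 0.13), a call lost without V888, V856 or V889, and Skp1 (-0.60 ± 0.13), lost without V857 or V889. At GV+3hr 2 passed, again lower, against 25.2% of all genes (12.7% lower). Nlrp4f (-0.50 ± 0.11, edgeR adjusted p 0.00323) kept its call without each of the 6 females, and Uhrf1 (-0.49 ± 0.16) lost it without any 1 of them. At MII 4 of the 8 passed between the genotypes in polyA eggs, 3 higher and 1 lower, where 18.9% of all genes were called and 11.9% called higher. Nlrp14, another oocyte NLR gene (1.40 ± 0.15), Dnmt1, the maintenance DNA methyltransferase (1.33 ± 0.21), and Cfl1, the actin-severing cofilin (0.79 ± 0.18), were higher in cKO, with edgeR adjusted p of 3.83e-05, 0.000709 and 0.0064. Ube2d3, a ubiquitin-conjugating enzyme, was lower (-0.54 ± 0.15, edgeR adjusted p 0.0178), a call lost without V842. In RiboMinus eggs, where 7.3% of all genes were called and 3.69% called lower, 3 of the 8 passed, all lower in cKO. They were Dnmt1 (-1.55 ± 0.31), Dppa3, which protects maternal methylation in the zygote (-1.66 ± 0.23), and Skp1, a ubiquitin ligase subunit (-1.37 ± 0.29). Their edgeR adjusted p was 0.0266, 0.0134 and 0.0335. The RiboMinus MII controls were the single female V1145. For these calls, and for the difference between library types below, the effect of genotype and that of the female cannot be told apart. The median log2 difference of the 8 genes was -0.04 in polyA and -0.81 in RiboMinus eggs, against 0.12 and 0.25 for all genes. The difference between library types passed for 5 of them, all higher in polyA, against 9.43% of all genes called and 5.78% called higher, with Dnmt1 at 2.84 ± 0.37 (edgeR adjusted p 7.15e-05) and Nlrp14 at 2.27 ± 0.43 (edgeR adjusted p 0.00225).

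Other maternal-effect genes did not share one direction. Of 12 listed, 8 passed from GV to MII in polyA controls, 5 higher and 3 lower, against 42.5% of all genes (16.8% higher and 25.7% lower). Their median log2 fold change was 0.20, and that of all genes was -0.26. Zar1l, an oocyte RNA-binding protein gene (-3.06 ± 0.23), and Npm2, a nuclear chaperone gene (-2.14 ± 0.18), fell, as did 5 of the 7 complex genes. Btg4, which recruits the deadenylase during maturation (2.09 ± 0.16), and Bcas2, a splicing factor gene (1.93 ± 0.20), rose with Zbed3 (edgeR adjusted p 4.14e-08, 1.14e-07, 5.23e-08 and 1.47e-06 in this order). Between the genotypes 3 of the 12 passed at polyA MII, against 18.9% of all genes, 2 higher and 1 lower, the lower being Btg4 (-1.07 ± 0.14, edgeR adjusted p 0.000128). The higher ones were Trim28 (0.61 ± 0.17), a call lost without V841 (0.55), V836 (0.55) or V853 (0.60), and Zfp57 (0.68 ± 0.18), lost without V897 (0.53) or V853 (0.64). Both encode parts of the complex that keeps imprints silent. At GV+3hr 6 passed, 2 higher and 4 lower, against 25.2% of all genes (12.5% higher and 12.7% lower), among them Btg4 (-0.92 ± 0.13, edgeR adjusted p 0.000276) and Pabpn1l, a poly(A)-binding protein gene (-1.43 ± 0.29, edgeR adjusted p 0.00244). Of these 6 the call on Zar1 was lost without V946, V983, V951 or V982, and that on Bcas2 without any 1 of V946, V993, V951, V982 and V995. At RiboMinus MII 2 passed against 7.3% of all genes, 1 in each direction, with Npm2 lower (-1.71 ± 0.23, edgeR adjusted p 0.0134) and Trim28 higher (1.42 ± 0.36), a call lost without V1167 (1.29). With V1145 as the single control female there, genotype and female cannot be told apart.

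Genes of 8 oocyte transcription regulators were also listed. At polyA GV+3hr 4 of them were higher in cKO and none lower, against 12.5% and 12.7% of all genes: Figla (1.238 ± 0.27), Nobox (0.57 ± 0.15), the TFIID subunit gene Taf4b (0.95 ± 0.20) and the TBP-like gene Tbpl2 (1.31 ± 0.36). Their edgeR adjusted p was 0.00403, 0.0123, 0.00286 and 0.0161. The call on Nobox was lost without V946, V993 or V995 and that on Tbpl2 without V982. None of the 7 complex genes was called higher in the same comparison, where 12.5% of all genes were. From GV to MII in polyA controls 5 of the 8 regulators passed, 2 higher and 3 lower, against 42.5% of all genes, and Figla fell (-4.03 ± 0.33, edgeR adjusted p 1.05e-07).

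Across the 64 polyA oocytes most members moved together in level. On the log2 CPM scale Pearson's r was 0.93 between Ooep and Khdc3, 0.92 between Tle6 and Khdc3 and 0.89 between Tle6 and Padi6. Zbed3 was opposed to them, at -0.91 with both Ooep and Khdc3. Nlrp5 stood apart, with r between -0.23 (Ooep) and 0.21 (Zbed3). With the mean of each group removed, the pairs changed: Nlrp5 and Nlrp2 had the highest r at 0.75, followed by Tle6 and Nlrp2 at 0.71, while Ooep and Khdc3 had 0.38. These oocytes share females, stages and library depth, so the values are descriptions over 64 oocytes and carry no test.

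The genes most like each member were sought among 8732 genes with a mean log2 CPM of at least 3 over the same 64 oocytes. Khdc3 was matched by Gm20509 (r = 0.9998), which shares its exons, and next by Dppa5a (0.96), a KH-domain gene of the same family. Tle6 was matched by Zp1 (0.94), a zona pellucida gene, and then by Khdc3 (0.92). Padi6 was matched by Flot2 (0.91), a flotillin gene, and by Zp2 (0.91), another zona pellucida gene. Ooep was nearest to Speer5-ps1 (0.98) and Ninj2 (0.98), and Zbed3 to the tubulin gene Tubb3 (0.95) and Cuta (0.95). Nlrp2 was nearest to Fmnl3 (0.90) and Rrn3 (0.88). Nlrp5 had the weakest likeness of the 7, with Paip2b (0.78) and Nudcd3 (0.77).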

How the data were processed

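The authors deposited raw HTSeq counts per Ensembl gene for each oocyte, with 5 summary lines that were left out. The submitters' processing notes name cutadapt 2.5, FastQC 0.11.8, STAR 2.7.2a, SAMtools 1.9, HTSeq 0.9.1, R 3.5.1, DESeq2 1.24.0 and mm10. Annotation release and strand setting were not given in the sources used here. The 22 ribosomal RNA files were not used.

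Each sample is 1 oocyte whose female is named per the labels, so counts were summed per female, the replicate. All groups of a library type entered 1 edgeR 4.0.16 quasi-likelihood fit (R 4.3.3) with filterByExpr and TMM. The comparisons between library types used all 10 groups. Tests were two-sided and adjusted by Benjamini-Hochberg over all genes tested. DESeq2 1.42.0, other scalings, no filter, fewer groups, oocytes as replicates and leaving out each female were alternatives. The scripts were tested on simulated data. P-values measure the spread between these females, with 1 estimate shared by all groups of a fit. The RiboMinus MII control group has 1 female and so no spread of its own. It was assumed to vary like the other groups.

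The members and gene lists were chosen with earlier results of these data known. Named genes were the 7 members, called genes of the 3 lists and, for each member, the 2 genes with the highest correlation. Oocyte and somatic marker genes and genes overlapping a member were named outside this rule, after their values were seen. The genotype effect by library type at MII was chosen after seeing the data. Python 3.11.15, numpy 2.4.6, pandas 2.3.3 and matplotlib 3.10.9 were used for levels and figures.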

Additional observations from a re-analysis of the deposited data

Results flagged for a closer look

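Single oocytes stood apart from their group in 4 of the 42 sets examined, each 1 gene in 1 group of 4 to 10 oocytes, by the gap to the nearest oocyte relative to the range of the group. Chance marks about 1 in 20 groups. All 4 were in RiboMinus GV groups. The highest Khdc3 level among cKO oocytes was 639.4 CPM, the highest Zbed3 level among cKO oocytes was 11982 CPM, the highest Padi6 level among controls was 1102 CPM and the lowest Nlrp2 level among controls was 248 CPM. The change from GV to MII differed between the genotypes in polyA libraries by a log2 difference of 1.27 for Ooep and 1.97 for Khdc3, in the edgeR test of the interaction.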

How the results depend on the processing

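No paired analysis was possible because the groups compared share no female. Of the 34 member values that passed the test, 32 kept their call with DESeq2 size factors, 28 with library totals, 34 with DESeq2's Wald test, 34 without the filter on low counts, 27 with only the groups compared in the fit and 34 with each oocyte as a replicate. Leaving out 1 female at a time kept 176 of 209 calls and lost 33.

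The number of the 7 genes called moved as follows. With library totals it was 0 for genotype at polyA GV. With DESeq2's Wald test it was 2 for genotype at polyA GV, 1 and 1 for GV to MII in RiboMinus control and cKO oocytes, and 4 and 2 for the interaction of stage and genotype in polyA and RiboMinus libraries. Without the filter it was 2 at polyA GV, 2 at GV+3hr, 1 at RiboMinus GV, 4 at RiboMinus MII, 4 and 4 for GV to MII in RiboMinus control and cKO oocytes, 4 and 2 for the interactions in polyA and RiboMinus libraries, and 5 for both the library-type difference in cKO oocytes and that of the genotype effect at MII. With only the groups compared it was 0 at polyA GV, 3 at GV+3hr, 6 for GV to MII in RiboMinus controls and 0 for the polyA interaction. With each oocyte as a replicate it was 2 at polyA GV, 2 at GV+3hr, 2 at RiboMinus GV, 5 and 4 for GV to MII in RiboMinus control and cKO oocytes, 6 and 3 for the interactions, and 5 for the genotype effect by library type.

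Leaving out 1 female gave 0 to 1 calls at polyA GV, 1 to 2 at GV+3hr, 2 to 4 at polyA MII and 2 to 5 at RiboMinus MII. For GV to MII it gave 4 to 7 in polyA cKO and 0 to 4 in RiboMinus cKO oocytes, and 0 to 4 for the polyA interaction. It gave 3 to 5 and 2 to 5 for the library-type difference in control and cKO oocytes, and 2 to 6 for the genotype effect by library type. Khdc3 ranged from -1.78 to 1.06 for genotype at RiboMinus MII and from -1.23 to 1.60 for the library-type difference in cKO oocytes. Sohlh1 ranged from -9.18 to 1.32 for GV to MII in polyA cKO oocytes. With library totals Uhrf1 was at -0.038 for GV to MII in polyA cKO oocytes and Nlrp4f at -0.054 for the library-type difference in cKO oocytes. The cause was not tested in any of these.

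Library totals shifted the median log2 fold change of all genes by 0.19 at polyA GV, 0.23 at GV+3hr, 0.13 at RiboMinus GV, 0.20 at RiboMinus MII, -0.43 and -0.52 for GV to MII in polyA control and cKO oocytes, and -0.32 and -0.70 for the library-type difference in control and cKO oocytes. DESeq2 size factors shifted it by -0.19 for that difference in cKO oocytes and by -0.16 for the genotype effect by library type. The share of called genes that were higher went, with library totals, for genotype from 47.0% to 74.2% (polyA GV), from 49.5% to 70.5% (GV+3hr) and from 49.5% to 65.9% (RiboMinus MII), from 39.5% to 21.4% and from 40.5% to 20.0% for GV to MII in polyA control and cKO oocytes, from 81.8% to 68.9% for the polyA interaction, and from 47.7% to 28.2% and from 55.8% to 20.7% for the library-type differences. With DESeq2 size factors it went from 61.3% to 48.5% for the genotype effect by library type. Over the settings other than leaving out females, all genes called ran from 1 to 5798 at polyA GV (1420 as reported), 3 to 4922 at RiboMinus GV (8), 1703 to 6620 at RiboMinus MII (1857), 2522 to 6500 at polyA MII (3644), 0 to 5732 and 0 to 4284 for GV to MII in RiboMinus control (2) and cKO oocytes (591), 13 to 2742 and 0 to 2837 for the polyA (373) and RiboMinus interactions (0), 2773 to 8616 for the library-type difference in cKO oocytes (5139) and 929 to 5051 for the genotype effect by library type (2337). The 3-hour comparisons reached 45 and 255. Leaving out 1 female also moved the number of all genes called. It ran from 110 (without V889) to 1825 (without V888) at polyA GV, 2976 (without V993) to 4682 at GV+3hr (4849), where it was also 3168 without V951 and 3192 without V982, and 2007 to 3746 (without V1167) at RiboMinus MII. At RiboMinus GV it was 1184 without V1126, 5 without V1131, 3 without V1133 and 2 without V1132. For GV to MII in RiboMinus cKO oocytes it was 6 without V1166, 33 without V1131 and 1879 without V1167, and in controls 0 without V1132 or V1133. For the polyA interaction it was 61 without V889, 122 without V857, 178 without V856, 218 without V842 and 1251 without V888. In the other comparisons with over 8 genes called it stayed within 1.5 times.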
